A study of Drosophila melanogaster with 4 samples.

Results

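The repeats of the pericentromeric end of chromosome arm 3R of Drosophila melanogaster were taken from a table of small RNA counts over annotated repeat copies in ovary. The members are all copies on 3R that end at or before position 4200000 of the dm6 build, where the centromere lies on the low-coordinate side. They are 5423 of the 137555 copies of the table. Of these 5423 copies, 4776 carry the name of a transposon or satellite and 647 are simple or low-complexity repeats, under 386 repeat names in all, and 1749 copies overlap another copy. The last copy inside the edge, a DNAREP1_DM fragment at 3R:4196866-4197044, held 0 and 0 counts in Ars2KD and 1 and 1 in wKD, and the first copy outside, another DNAREP1_DM fragment at 3R:4199903-4200071, held 0 and 0 counts in Ars2KD and 0 and 2 in wKD.

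Small RNA libraries came from ovaries of flies with germline knockdown of Ars2 (short hairpin Ars2_sh1, stock 106344 of the VDRC collection, called Ars2KD, 2 libraries) and of flies with germline knockdown of the eye-pigment gene white (hairpin white_sh, stock 30033, called wKD, 2 libraries). Ars2 binds RNA and works with the nuclear cap-binding complex, and white, which acts in eye pigmentation, is the target of the knockdown that it is set against. The knockdown was labelled as germline, so the somatic cells of the ovary, which make piRNAs of their own, were in the libraries too. Each group came from a single hairpin stock, so the knockdown and other differences between the stocks cannot be told apart. RNA was cut from a gel at 19 to 29 nt, and the deposited table counts reads of 24 to 29 nt. The labels name neither the driver of the hairpins, nor the age of the flies, nor whether the 2 libraries of each group are from different flies, and p-values therefore reflect the spread among these 4 libraries alone, which may be technical.

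Pericentromeric heterochromatin is the compact, gene-poor chromatin beside a centromere. It is packed with transposon remnants that sit inside one another, and the few genes that lie in it often have introns made almost wholly of such remnants. In the Drosophila ovary, stretches of these remnants are transcribed and cut into piRNAs, the small RNAs that guide Piwi proteins to silence related transposons. LINE elements copy themselves through an RNA intermediate without long terminal repeats, whereas LTR elements carry a long terminal repeat at each end of an internal part that is named separately in the table.

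The table held 46218 and 169124 counts in Ars2KD 1 and 2, and 64395 and 323180 counts in wKD 1 and 2. Of these, 6654 and 22708 (Ars2KD 1 and 2) and 8479 and 37648 (wKD 1 and 2) fell in the region. That was 14.4% (exact binomial 95% interval 14.1 to 14.7%) and 13.4% (13.3 to 13.6%) of the table in Ars2KD, and 13.2% (12.9 to 13.4%) and 11.6% (11.5 to 11.8%) in wKD. The intervals, like the floor of 3 counts per library used further on, cover counting error only. With 3.94% of all copies, the region thus held a larger share of the counts than of the copies in all 4 libraries. Some 41.3% of its copies had at least 1 count in any library, against 9.78% of the copies in the rest of the table.

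Per kb of bases covered by copies, the region gave 43.0 and 40.1 CPM (counts scaled to the table total of the library) in Ars2KD, and 39.3 and 34.8 in wKD. Copies outside the 4 pericentromeres compared here gave 20.5 and 23.3 in Ars2KD, and 23.1 and 26.7 in wKD, so the region was the denser one in every library. It was less dense than the other pericentromeres. The end of X (from position 21000000) gave 116 and 101 CPM per covered kb in Ars2KD, and 110 and 96.7 in wKD. The end of 3L (from position 23000000) gave 54.3 and 48.5 in Ars2KD, and 53.5 and 43.7 in wKD. The end of 2L (from position 22000000) gave 87.1 and 80.9 in Ars2KD, and 55.2 and 48.9 in wKD.

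The first comparison asks whether the region as a whole gained or lost 24 to 29 nt reads upon Ars2 knockdown. Both Ars2KD libraries gave the region a higher share of the table than both wKD libraries, by a small margin. In a fit with the summed region as 1 feature, its level was 134694 and 154388 CPM (counts scaled to the size of the library) in Ars2KD, against 116868 and 122006 CPM in wKD. The log2 ratio of Ars2KD over wKD was 0.28 (SE 0.15), which did not pass the threshold (edgeR quasi-likelihood test with Benjamini-Hochberg adjustment, adjusted p = 0.840). The log2 of region over the rest of the table was -2.57 and -2.69 in Ars2KD, and -2.72 and -2.92 in wKD, a difference of 0.19 (two-sided exact permutation test, p = 0.333, the smallest that 2 libraries against 2 can give). With all copies kept in the scaling the log2 ratio of the region turned to -0.04, so the direction of the whole region depends on the filter. In whole ovaries, fewer cells of a type and less RNA per cell cannot be told apart in any of these values.

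Set against its neighbours, the region was lower relative to the end of 2L in Ars2KD than in wKD. The log2 of 3R over 2L counts was 0.82 and 0.82 in Ars2KD, against 1.34 and 1.34 in wKD, and the difference of -0.53 kept its sign without any 1 library and with another edge of 2L. Neither library of 1 group reached the range of the other, and the exact two-sided permutation p was 0.333, again the smallest possible. The log2 of 3R over X was -0.02 and 0.08 in Ars2KD, and -0.08 and -0.06 in wKD (difference 0.10, exact permutation p = 0.333). That of 3R over 3L was -0.50 and -0.43 in Ars2KD, and -0.60 and -0.49 in wKD, groups that overlap (difference 0.08, exact permutation p = 0.667). The end of 2L had a fitted log2 ratio of 0.80 (SE 0.17, edgeR adjusted p = 0.831) in the fit that gave 0.28 for 3R.

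Counts were spread unevenly along the arm. Genes of the annotation divide it into stretches, which were drawn after the counts had been seen and are described without a test. The 567 kb before Myo81F, closest to the centromere, held 11.5% of the copies but 1.40% and 1.27% of the region's counts in Ars2KD, and 0.944% and 0.797% in wKD. Myo81F, which encodes a myosin heavy chain and spans 3R:567076-2532932, held 2567 copies and 40.9% and 42.2% of the region's counts in Ars2KD, compared with 35.9% and 38.8% in wKD. Pzl, a gene of the Piezo family of mechanosensitive channels at 3R:2554162-3263582, held 15.9% and 16.2% in Ars2KD, against 12.1% and 11.7% in wKD. Both Ars2KD libraries were above both wKD libraries in each of these 3 stretches.

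Distal to Pzl the order of the groups differed. The 605 kb from Pzl to the end of CG41099, which holds spok (an ecdysone biosynthesis enzyme), Parp1 (the poly-ADP-ribose polymerase), Alg-2 and Tim17b (a mitochondrial import subunit), took 15.1% and 15.1% of the region's counts in Ars2KD, and 17.8% and 15.9% in wKD. The gene-free interval between CG41099 and CG42402, at 3R:3868402-4077938, took 25.8% and 24.6% in Ars2KD, and 31.7% and 31.2% in wKD. Its 286 copies are 5.27% of the copies of the region. The last stretch, from CG42402 to the edge, took 0.616% and 0.449% in Ars2KD, and 1.52% and 1.56% in wKD. All 3 of these shares were lower in both Ars2KD libraries than in both wKD libraries.

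Shares of the region sum to a whole, so levels are given beside them. Myo81F gave 27.4 and 29.8 CPM per kb in Ars2KD, compared with 22.5 and 25.8 CPM per kb in wKD. Pzl gave 29.6 and 31.7 CPM per kb in Ars2KD, compared with 21.1 and 21.5 CPM per kb in wKD. The gene-free interval gave 163 and 163 CPM per kb in Ars2KD, compared with 187 and 195 CPM per kb in wKD. Levels therefore differed in the same directions as the shares in these 3 stretches, and the interval was the densest stretch in all 4 libraries. From Pzl to the end of CG41099 the levels of the groups overlapped, at 33.0 and 34.7 CPM per kb in Ars2KD, and 36.3 and 34.3 CPM per kb in wKD.

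**Figure D1:**
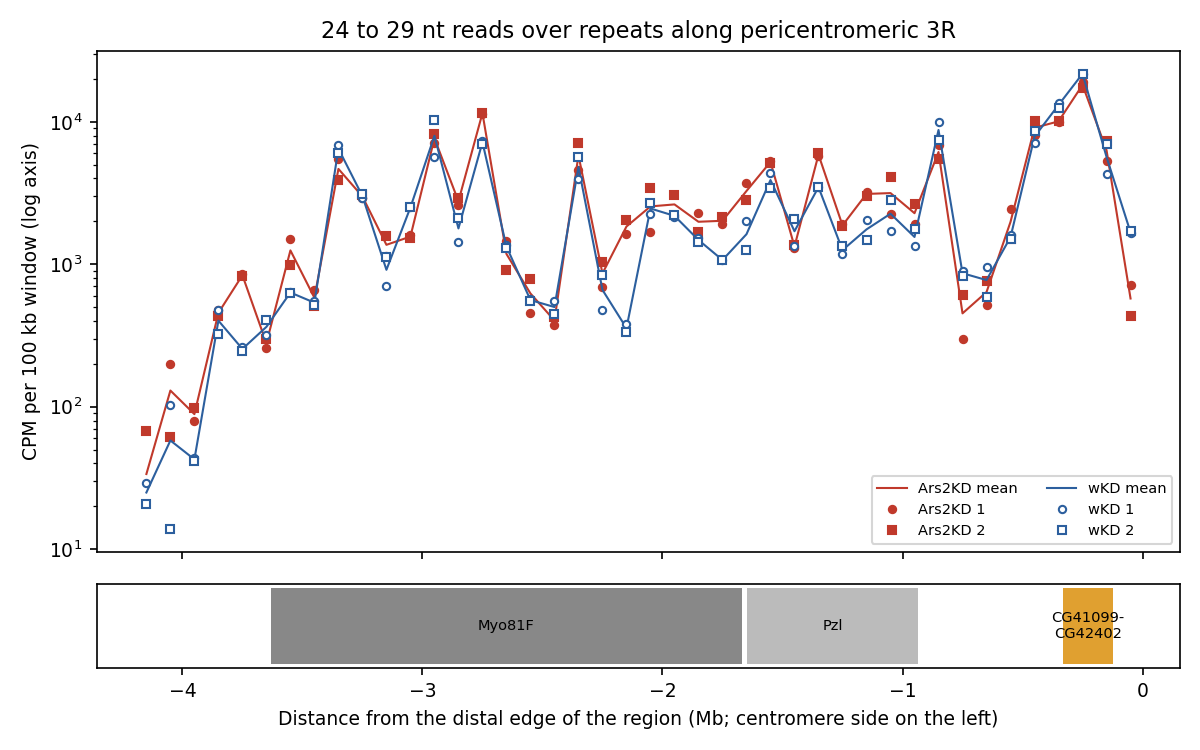
Normalised counts (CPM, log axis) of 24 to 29 nt reads in 100 kb windows against the distance from the distal edge of the region in Mb, with a point per library (filled for Ars2KD, open for wKD) and a line per group mean, and the genes Myo81F and Pzl and the CG41099 to CG42402 interval below. Levels are lowest at the centromere side and highest in the interval near the distal edge, and a library with 0 counts in a window has no point.

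Within the gene-free interval most counts came from 40 kb. The bases 3R:3880001-3920000, chosen after the counts had been seen, held 48 copies and 19.1% and 17.4% of the region's counts in Ars2KD, compared with 25.3% and 23.5% in wKD. The densest 10 kb of it, 3R:3900001-3910000, held 9.89% and 8.22% of the region's counts in Ars2KD, and 11.8% and 10.7% in wKD. As a level the 40 kb gave 25185 and 24191 CPM in Ars2KD, and 31287 and 30724 CPM in wKD. In neither Ars2KD library did the level reach that of a wKD library, a difference without a test of its own. The copies there include remnants of Rt1 elements (DMRT1A, DMRT1B and DMRT1C, LINEs of the R1 group), of gypsy8, of the Pao-group LTR elements NINJA and BATUMI, and single or few pieces of other elements such as Baggins1, PROTOP_B and gypsy12. Several touch or interrupt each other, as the gypsy8 pieces do that lie between DMRT1B pieces. The whole gene-free interval gave 34056 and 34241 CPM in Ars2KD, and 39094 and 40835 CPM in wKD. In the part of the interval outside the 40 kb, the levels of the groups overlapped.

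**Figure D2:**
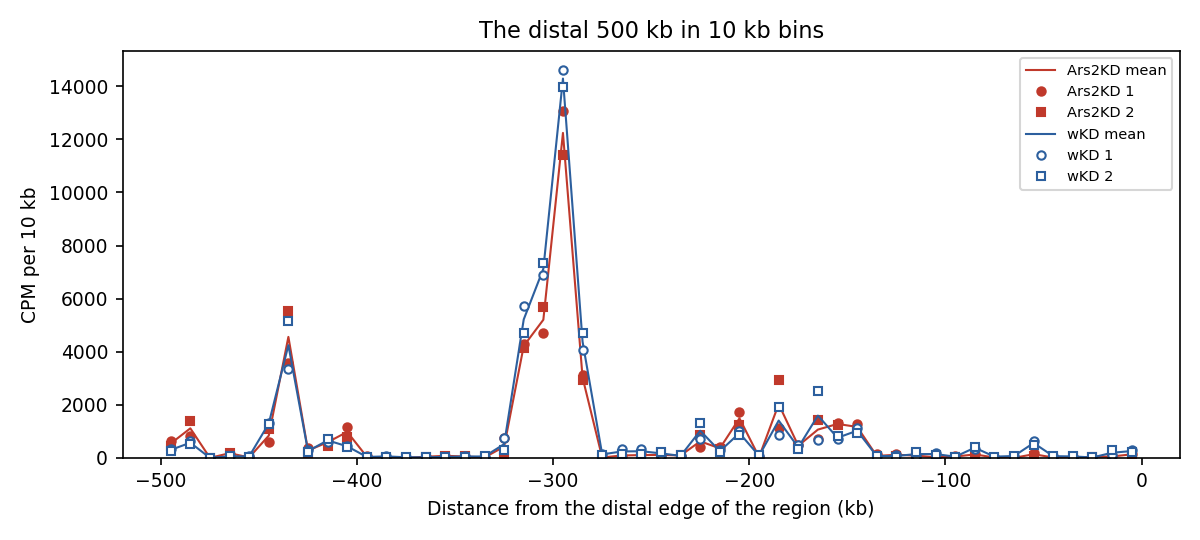
Normalised counts (CPM) in 10 kb bins of the distal 500 kb against the distance from the distal edge in kb, with a point per library and a line per group mean. The 4 bins around the peak lie within the 40 kb that held 17.4 to 25.3% of the region's counts, and in its densest bin both Ars2KD libraries lie below both wKD libraries.

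The same was fitted for all 100 kb windows of the genome, to see where along the arm levels differed between groups. Of the 42 windows of the region, 41 passed the filter on low counts, and none passed the adjusted threshold in edgeR in either direction (all windows: 0% higher, 0% lower). At an unadjusted p under 0.05, 9 of the 41 were higher in Ars2KD and 2 lower, against 5.59% higher and 6.83% lower among all 322 windows tested. Both Ars2KD libraries were above both wKD libraries in 15 windows (36.6%, against 24.5% of all windows) and below them in 9 (22%, against 23.6%). The median log2 ratio was 0.27 over the 41 windows and 0.03 over all 322. DESeq2 called 2 windows higher and 1 lower, and limma-voom called 1 higher. The shares of all windows called by these methods are not given here.

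The windows sum the same counts from which the stretches were drawn, so their ratios by stretch describe those counts again. All 4 tested windows before Myo81F had a log2 ratio above 0, with a median of 1.19. Of the 28 windows over Myo81F and Pzl, 20 were above 0, with a median of 0.39, and in 13 of them both Ars2KD libraries were above both wKD libraries and in 4 below them (all windows: 24.5% above, 23.6% below). Of the 9 windows distal to Pzl, 3 were above 0, with a median of -0.26. In none of those 9 were both Ars2KD libraries higher, and in 5 both were lower (all windows: 24.5% higher, 23.6% lower).

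**Figure D3:**
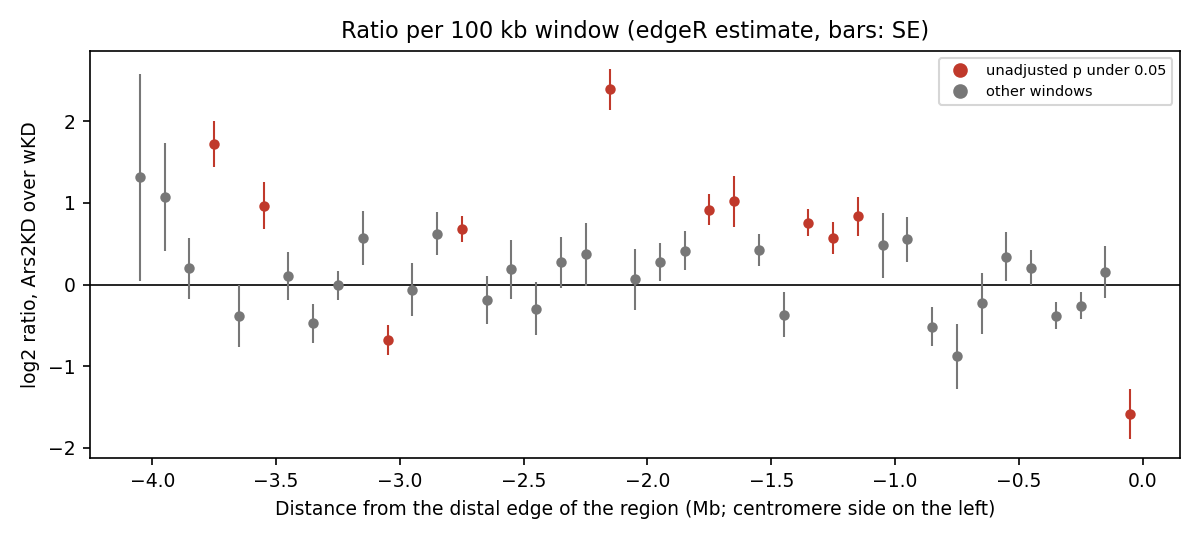
Log2 ratio of Ars2KD over wKD for each tested 100 kb window (edgeR estimate, bars: SE) against the distance from the distal edge in Mb, with windows at an unadjusted p under 0.05 in red. The 11 red points include the highest ratio (2.39, within Myo81F) and the lowest (-1.59, at the distal edge), and none passed the adjusted threshold.

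The window 3R:2000001-2100000, inside Myo81F, had the highest ratio. It held 82 and 335 counts in Ars2KD, compared with 26 and 96 in wKD. As a level this was 1627 and 2052 CPM in Ars2KD, and 379 and 333 CPM in wKD. The groups were far apart, with Ars2KD the higher one. The log2 ratio was 2.39 (SE 0.25, edgeR adjusted p = 0.0506), just short of the threshold. Without the mdg3 element described below, an alternative added after seeing the data, the ratio of the window turned to -0.23 (edgeR adjusted p = 0.824), the highest p of its alternatives, of which the lowest was 2.68e-06 in DESeq2.

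The lowest ratio lay at the other end. The window 3R:4100001-4200000, which covers parts of CG42402, Gfat1 (the first enzyme of hexosamine synthesis), Dsk (a neuropeptide precursor) and their neighbours, held 36 and 71 counts in Ars2KD, compared with 113 and 490 in wKD. Both Ars2KD libraries lay below both wKD libraries, with a log2 ratio of -1.59 and an SE of 0.31 (edgeR adjusted p = 0.207). No single copy carried it: the copy with most counts, an IVK_DM fragment of the I-element group, gave 11.1% and 11.3% of the window in Ars2KD, and 8.85% and 9.80% in wKD. DESeq2 called this window lower (adjusted p = 0.0189), and over all alternatives its adjusted p was 0.0095 to 0.700.

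The windows with the highest levels differed less. The highest, 3R:3900001-4000000, held 961 and 2810 counts in Ars2KD, and 1487 and 6281 in wKD, with a log2 ratio of -0.26 (SE 0.17). The one before it, 3R:3800001-3900000, held 504 and 1654 counts in Ars2KD, and 937 and 3626 in wKD, with a log2 ratio of -0.38 (SE 0.16). In 3R:3300001-3400000, which holds spok, there were 344 and 888 counts in Ars2KD, and 688 and 2159 in wKD, with a log2 ratio of -0.51 (SE 0.24). In all 3 the CPM of both Ars2KD libraries was below that of both wKD libraries, yet the adjusted p was between 0.479 and 0.555 in edgeR. In the opposite direction, 3R:1400001-1500000 in Myo81F held 573 and 1896 counts in Ars2KD, and 506 and 2017 in wKD, with a log2 ratio of 0.68 and an SE of 0.16 (edgeR adjusted p = 0.237). The last windows of high level, 3R:1200001-1300000 and 3R:3700001-3800000, had log2 ratios of -0.06 (SE 0.33) and 0.21 (SE 0.21), with overlapping groups.

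By kind of element, LINEs gave the largest part of the counts. They are 20.8% of the copies and held 51.2% and 54.0% of the region's counts in Ars2KD, and 49.1% and 53.0% in wKD. Elsewhere in the table LINEs held 38.1% and 43.0% in Ars2KD, and 36.3% and 44.1% in wKD. The region was above the rest in all 4 libraries. LTR elements are 47.3% of the copies and held 42.3% and 41.6% in Ars2KD, and 44.3% and 41.7% in wKD. Satellites, in contrast, were nearly empty: their 140 copies held 22 and 20 counts in Ars2KD, and 18 and 40 in wKD.

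The R1 group of LINEs, which includes Rt1, stood out among the kinds. Its 180 copies are 3.32% of the region's copies, and they held 27.0% and 31.0% of its counts in Ars2KD, and 27.8% and 32.1% in wKD. Elsewhere in the table the R1 group held 17.2% and 19.5% in Ars2KD, and 16.5% and 22.7% in wKD. A large R1 share was thus not limited to the region. The Gypsy group of LTR elements took a similar part with far more copies, as its 2181 copies held 30.6% and 28.8% in Ars2KD, and 32.4% and 27.9% in wKD. Few R1-group copies thus held about as many counts as many Gypsy-group copies. The Jockey group of LINEs held 11.4% and 12.1% in Ars2KD, and 9.32% and 10.4% in wKD. The CR1 group, all of it DMCR1A, held 7.26% and 6.87% in Ars2KD, and 8.02% and 7.19% in wKD.

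Few copies carried much of the signal. The 10 copies with most counts in a library held 16.8% and 19.7% of the region's counts in Ars2KD, and 19.8% and 22.1% in wKD. The 50 with most held 37.3% and 43.5% in Ars2KD, and 41.6% and 46.6% in wKD. Since the depth of the libraries differs, the number of copies with a count was 1186 and 1164 in Ars2KD, and 1337 and 1695 in wKD, which is not a comparison of the groups.

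Counts summed per repeat name, separately for copies in the region and elsewhere, show which elements differed. Of the 386 names, 197 had a count in any library and 114 passed the filter on low counts. Only 1 name, the internal part of the LTR element mdg3 (MDG3_I-int), was higher in Ars2KD at the adjusted threshold and none was lower (all names: 0.599% higher, 0% lower). At an unadjusted p under 0.05, 7 names were higher and 1 was lower (all names: 3.29% higher, 2.99% lower), and DESeq2 and limma-voom also called no name lower. Both Ars2KD libraries were above both wKD libraries for 26 of the 114 names (22.8%, against 17.7% of all names) and below them for 14 (12.3%, against 15.3%). The median log2 ratio was 0.04 over the 114 names and -0.02 over all 334.

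mdg3 is a Gypsy-group LTR retrotransposon. MDG3_I-int in the region, 8 copies of which 3 had a count, held 64 and 277 counts in Ars2KD, compared with 7 and 18 in wKD. As a level this was 1279 and 1700.2 CPM in Ars2KD, against 97.7 and 64.6 CPM in wKD. The lowest Ars2KD library was thus far above the highest wKD library. The log2 ratio was 4.26 (SE 0.46, edgeR adjusted p = 0.00808), and the name passed the threshold without each library in turn, with log2 ratios of 3.92 to 4.54. Reads assigned to a wrong copy would move counts of this name between the region and elsewhere, which was not tested. Copies of MDG3_I-int elsewhere in the genome held 67 and 363 counts in Ars2KD, and 125 and 690 in wKD, with a log2 ratio of -0.24 (SE 0.36). The region therefore held 48.9% and 43.3% of the name's counts in Ars2KD, compared with 5.30% and 2.54% in wKD, with 4.83% of the bases of this name.

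Nearly all of it came from 1 place. The mdg3 element at 3R:2085178-2089330, in an intron of Myo81F, consists of 4 adjoining pieces: an LTR of 230 bp, internal parts of 1771 and 1860 bp, and an LTR of 293 bp. In total it held 68 and 298 counts in Ars2KD, compared with 6 and 11 in wKD. That was 1325 and 1868 CPM in Ars2KD, and 86.5 and 38.4 CPM in wKD. The other copies of the same 100 kb window together held 14 and 37 counts in Ars2KD, and 20 and 85 in wKD, which is 278 and 227 CPM in Ars2KD, and 291 and 295 CPM in wKD, so the surrounding copies did not share the height of the element.

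Each piece of the element was higher in both Ars2KD libraries. The first LTR held 4 and 5 counts in Ars2KD, and 0 and 0 in wKD. The first internal part held 15 and 14 counts in Ars2KD, and 3 and 0 in wKD. The second internal part, the only piece with enough counts to be tested on its own, held 46 and 263 counts in Ars2KD, and 3 and 11 in wKD (log2 ratio 4.96, SE 0.73, edgeR adjusted p = 0.0933). It gave most of the counts of the element in each group. Without Ars2KD 1 it passed the threshold (edgeR adjusted p = 0.00718, range over all alternatives 1.98e-17 to 0.236). The last LTR held 3 and 16 counts in Ars2KD, and 0 and 0 in wKD. The name MDG3_LTR, which is these 2 LTR pieces, was thus listed at 0 in both wKD libraries (edgeR adjusted p = 0.388). A floor of 3 counts per library is 41.9 and 10.8 CPM in wKD. The mean of MDG3_LTR in Ars2KD, 134 CPM, was 5.11-fold the mean of these floors.

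**Figure D4:**
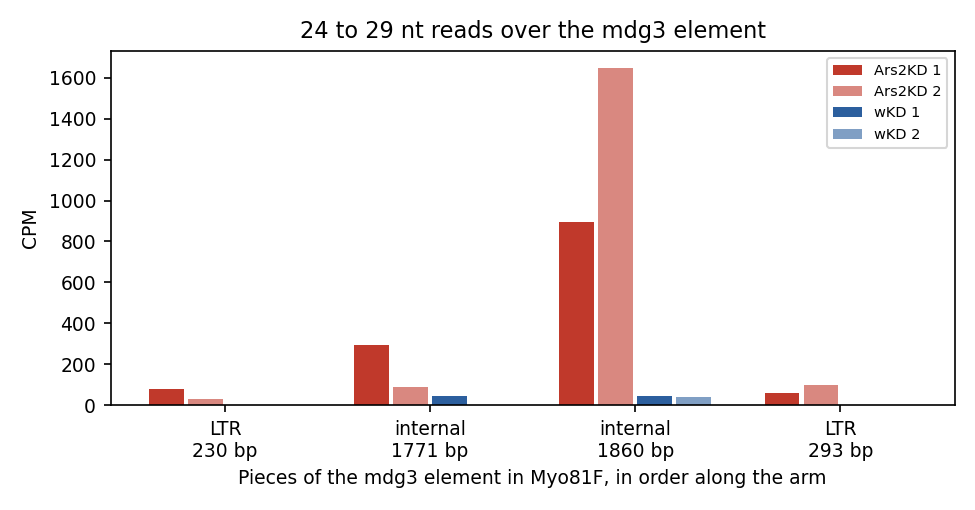
Normalised counts (CPM) of each of the 4 pieces of the mdg3 element in Myo81F, in order along the arm, with a bar per library (red shades for Ars2KD, blue shades for wKD). The 2 Ars2KD bars reach 896 and 1649 CPM at the second internal part, where the wKD bars reach 43.2 and 38.4 CPM, and both LTR pieces have no wKD counts.

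None of the names with the highest levels passed the threshold. DMRT1B, an Rt1 LINE with 54 copies in the region, held 896 and 3646 counts in Ars2KD, and 1108 and 6558 in wKD (log2 ratio 0.05, SE 0.37). DMRT1A, a second Rt1 LINE with 66 copies, held 757 and 2683 counts in Ars2KD, and 1130 and 5072 in wKD (log2 ratio -0.10, SE 0.33). For both, the CPM of the groups overlapped. The region held 35.0% and 45.2% of the DMRT1A counts of the whole table in Ars2KD, and 40.9% and 44.5% in wKD, with 30.2% of the bases of DMRT1A. The internal part of gypsy8 (Gypsy8_I-int, Gypsy group) held 550 and 1871 counts in Ars2KD, and 629 and 3043 in wKD (log2 ratio 0.19, SE 0.31).

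Further names of high level gave ratios near 0 or wide errors. DMCR1A, a CR1-group LINE, had a log2 ratio of 0.00 (SE 0.29), with 9653 and 9581 CPM in Ars2KD, and 9493 and 9720.3 CPM in wKD. The Pao-group LTR elements NINJA_I-int, BATUMI_I-int and MAX_I-int had log2 ratios of -0.04 (SE 0.28), -0.05 (SE 0.42) and 0.23 (SE 0.30), and their groups overlapped. OSVALDO_I-int, of the Gypsy group, had a log2 ratio of -0.30 (SE 0.45). Its counts sat mainly in the region, which held 71.3% and 53.4% of them in Ars2KD, and 80.3% and 66.0% in wKD, from 26.3% of its bases. DOC3_DM, a Jockey-group LINE, had a log2 ratio of 0.05 (SE 0.39).

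Baggins1, a LINE of the LOA group, had the largest ratio of the 10 names of highest level. It held 248 and 615 counts in Ars2KD, and 209 and 733 in wKD, or 4956 and 3775 CPM in Ars2KD, and 2918 and 2631 CPM in wKD. Both Ars2KD libraries lay above both wKD libraries. The log2 ratio of 0.65 (SE 0.29) did not pass the threshold (edgeR adjusted p = 0.769), and copies elsewhere had a log2 ratio of 0.25 (SE 0.34).

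**Figure D5:**
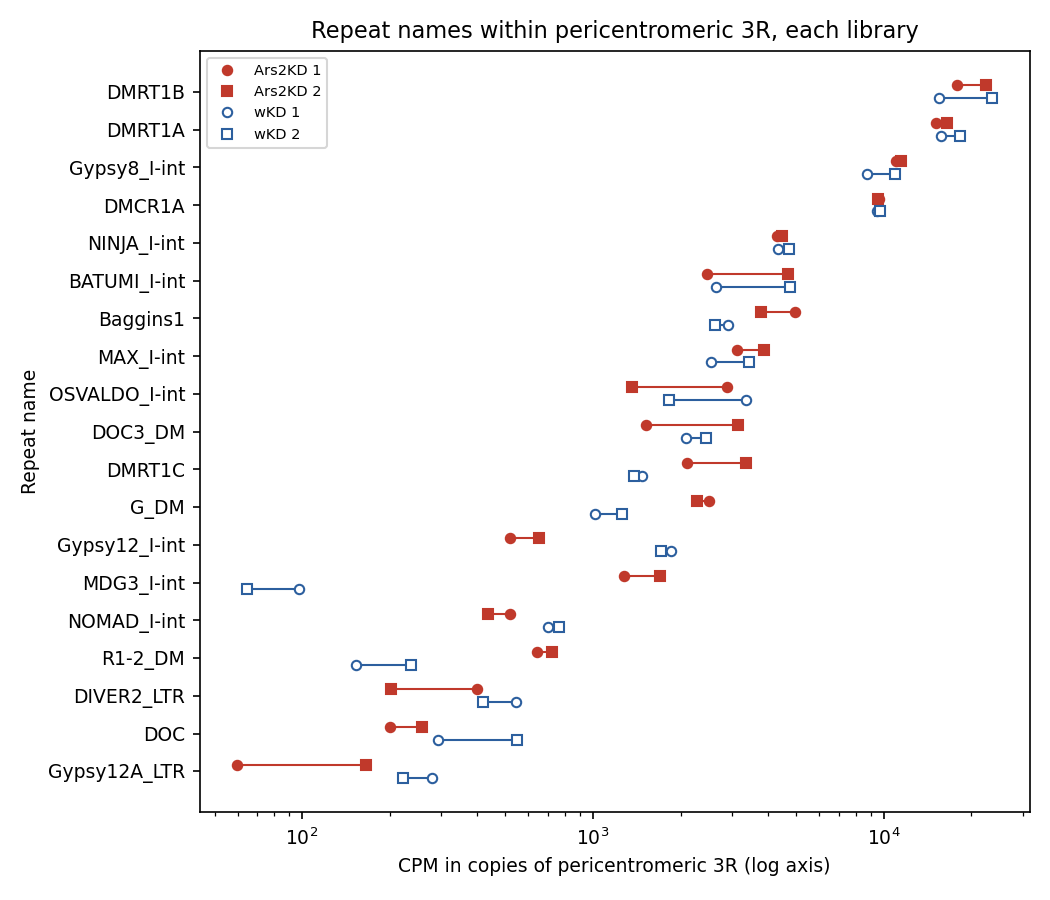
Normalised counts (CPM, log axis) of the named repeat names with counts in both groups (MDG3_LTR, at 0 in wKD, is not drawn), summed over their copies in the region, with a point per library and a line joining the 2 libraries of a group (filled red for Ars2KD, open blue for wKD). Of the names shown, MDG3_I-int has the widest gap between groups, with 1279 and 1700.2 CPM in Ars2KD against 97.7 and 64.6 CPM in wKD, while the names of highest level overlap or nearly touch.

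Among names of lower level, 3 LINEs came next to mdg3 on the higher side, none past the adjusted threshold. R1-2_DM, of the R1 group, held 32 and 118 counts in Ars2KD, and 11 and 66 in wKD (log2 ratio 1.77, SE 0.49, edgeR adjusted p = 0.377). G_DM, the G element of the Jockey group, held 125 and 370 counts in Ars2KD, and 73 and 351 in wKD (log2 ratio 1.06, SE 0.30, edgeR adjusted p = 0.388). DMRT1C, the least abundant Rt1 LINE of the 3, held 105 and 545 counts in Ars2KD, and 106 and 387 in wKD (log2 ratio 0.93, SE 0.33, edgeR adjusted p = 0.639). In CPM, both Ars2KD libraries were above both wKD libraries for each of these. Copies elsewhere had log2 ratios in the same direction, 0.51 (SE 0.31) for R1-2_DM, 0.39 (SE 0.35) for G_DM and 0.50 (SE 0.32) for DMRT1C.

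On the lower side, the internal part of gypsy12 (Gypsy12_I-int) had the lowest p. It held 26 and 106 counts in Ars2KD, compared with 133 and 478 in wKD, or 520 and 651 CPM in Ars2KD, and 1857 and 1716 CPM in wKD. Both Ars2KD libraries were below both wKD libraries, with a log2 ratio of -1.60 and an SE of 0.33 (edgeR adjusted p = 0.141), while copies elsewhere had a log2 ratio of -0.19 (SE 0.33). The other names on that side, NOMAD_I-int, DOC, Gypsy12A_LTR and DIVER2_LTR, had log2 ratios between -1.05 and -0.62, with edgeR adjusted p between 0.952 and 0.979. Their copies elsewhere were also lower for NOMAD_I-int (-0.83, SE 0.29), DOC (-0.48, SE 0.33) and DIVER2_LTR (-0.63, SE 0.74). For Gypsy12A_LTR the ratio elsewhere was 0.23 (SE 0.34).

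Single copies were tested last, as their counts are the smallest and as reads of near-identical copies can be assigned to the wrong one. For names, such reads matter where they cross between the region and elsewhere. Of the 5423 copies, 2242 had a count and 340 passed the filter on low counts. None of the 340 passed the adjusted threshold in edgeR (all copies: 0.0607% higher, 0% lower). At an unadjusted p under 0.05, 14 were higher in Ars2KD and 9 lower (all copies: 2.13% higher, 2% lower). DESeq2 called 1 higher and 1 lower, while limma-voom called none. The shares of all copies called by these methods are not given here. Both Ars2KD libraries were above both wKD libraries for 82 copies (24.1%, against 17% of all copies) and below them for 48 (14.1%, against 16.9%). The median log2 ratio was 0.17 over the 340 copies and -0.01 over all 1647. By stretch the median was 0.09 over 4 copies before Myo81F, 0.29 over 157 copies in Myo81F and 0.33 over 57 copies in Pzl. Further out it was -0.08 over 56 copies from Pzl to the end of CG41099, and -0.07 over 62 copies in the gene-free interval. From CG42402 to the edge it was -1.34 over 3 copies.

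The copies with the highest levels were mostly Rt1 fragments, and several of these lay in the dense 40 kb. The DMRT1A copy at 3R:3898797-3900250, between CG41099 and CG42402, held 178 and 558 counts in Ars2KD, and 329 and 1029 in wKD (log2 ratio -0.26, SE 0.46). The adjoining DMRT1A copy at 3R:3900247-3901598 held 125 and 595 counts in Ars2KD, and 228 and 1015 in wKD (log2 ratio -0.15, SE 0.48). The DMRT1B copy at 3R:3766782-3771389, beyond CG41128, held 136 and 725 counts in Ars2KD, and 146 and 956 in wKD (log2 ratio 0.40, SE 0.53). None of these ratios exceeds its SE.

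Replicates of a group differed widely at some of the top copies. The DMRT1B copy at 3R:1287600-1288860, in an intron of Myo81F, held 87 and 527 counts in Ars2KD, and 96 and 1674 in wKD, which is 1695 and 3304 CPM in Ars2KD, and 1383 and 5849 CPM in wKD. Its log2 ratio of -0.53 (SE 0.74) was between -1.36 and 0.87 without each library in turn, the highest being that without wKD 2. The 3 DMRT1B copies at 3R:3902655-3903224, 3R:3908295-3910084 and 3R:3910083-3912236 had log2 ratios of -0.37, -0.10 and 0.01, and the DMRT1B copy at 3R:4016145-4020892 had 0.60. Each of these 4 ratios was smaller than its SE, so none shows a direction. The BATUMI_I-int copy at 3R:3890775-3897903 held 54 and 333 counts in Ars2KD, and 108 and 615 in wKD (log2 ratio -0.23). The NINJA_I-int copy at 3R:3883070-3884418 had a log2 ratio of -0.67 (SE 0.50), with both Ars2KD libraries below both wKD libraries in CPM.

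Of the copies with the lowest p on the lower side, 3 lay in the dense 40 kb. The gene-free interval around it held 62 of the 340 tested copies. The Gypsy12_I-int copy at 3R:3913867-3915014 held 13 and 18 counts in Ars2KD, compared with 105 and 406 in wKD, or 253 and 113 CPM in Ars2KD, and 1513 and 1419 CPM in wKD. The groups did not overlap, Ars2KD being far lower, with a log2 ratio of -3.05 and an SE of 0.67 (edgeR adjusted p = 0.565, DESeq2 adjusted p = 0.0381, range over all alternatives 9.33e-10 to 0.903). A pair of PROTOP_B copies, remnants of the P-related DNA transposon also called 1360, lay on either side of the BATUMI copy described above. The PROTOP_B copy at 3R:3889314-3889839 held 0 and 2 counts in Ars2KD, compared with 18 and 45 in wKD, and the one at 3R:3898191-3898711 held 2 and 27 in Ars2KD, against 20 and 393 in wKD. Both were lower in both Ars2KD libraries, with log2 ratios of -4.42 (SE 1.16) and -2.89 (SE 0.99) and edgeR adjusted p of 0.828 and 0.998. The long BATUMI copy between them had a log2 ratio of -0.23. A shorter BATUMI_I-int copy, also between them at 3R:3890127-3890709, held 3 and 13 counts in Ars2KD, and 16 and 81 in wKD. Its log2 ratio was -1.83 (SE 0.72, edgeR adjusted p = 0.998).

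The other lower copies of this rank were apart from each other. The Gypsy9_I-int copy at 3R:1160062-1161263, in an intron of Myo81F, held 0 and 2 counts in Ars2KD, compared with 17 and 43 in wKD (log2 ratio -4.35, SE 1.18). The MAX_I-int copy at 3R:894519-895308, also in an intron of Myo81F, held 6 and 19 counts in Ars2KD, compared with 28 and 127 in wKD (log2 ratio -1.84, SE 0.67). The DIVER2_LTR copy at 3R:3764770-3765051, between genes, held 4 and 6 counts in Ars2KD, compared with 17 and 66 in wKD (log2 ratio -2.13, SE 0.80). Their edgeR adjusted p were 0.828, 0.998 and 0.998.

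On the higher side, most of the copies with the lowest p lay in or next to Myo81F, which held 157 of the 340 tested copies. Chouto_I-int at 3R:1674388-1675416, in an intron, held 4 and 40 counts in Ars2KD, compared with 0 and 3 in wKD (log2 ratio 4.35, SE 1.30). TABOR_I-int at 3R:2527328-2527707, in an intron near the end of the gene, held 5 and 33 counts in Ars2KD, compared with 0 and 5 in wKD (log2 ratio 3.62, SE 1.27). Gypsy8_I-int at 3R:1432218-1432431, in an intron, held 8 and 54 counts in Ars2KD, compared with 4 and 14 in wKD (log2 ratio 2.25, SE 0.79). All 3 are internal parts of Gypsy-group elements. The DMCR1A copy at 3R:2541800-2542122, between Myo81F and Pzl, held 6 and 48 counts in Ars2KD, compared with 2 and 7 in wKD (log2 ratio 3.01, SE 0.93).

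A further copy of this kind lay in the gene-free interval. The DMRT1A copy at 3R:4045090-4045412 held 17 and 51 counts in Ars2KD, compared with 2 and 12 in wKD, or 331 and 320 CPM in Ars2KD, and 28.8 and 41.9 CPM in wKD (edgeR adjusted p = 0.692). It was higher in both Ars2KD libraries, while the 2 DMRT1A copies of highest level in the same interval had ratios smaller than their SE. The edgeR adjusted p of the other 4 copies on the higher side was 0.998.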

How the data were processed

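The authors deposited raw counts of 24 to 29 nt reads per repeat copy, which were used unchanged, with no column left out. Per the submitters' processing notes the tools were FastQC, Trimmomatic, Bowtie2 and featureCounts, on dm6. Their versions, multi-mapping rule and strand setting are not given in the sources used here. Counts of near-identical or overlapping copies are uncertain for that reason. A deposited miRNA count table was not used here.

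Counts were summed over 100 kb windows of the genome, over repeat names inside and outside the region, and over 4 pericentromeres. Each table was fitted in R 4.3.3 by edgeR 4.0.16 (its quasi-likelihood test after TMM normalization, filterByExpr, no replicate block), with Benjamini-Hochberg adjustment over its 1647 copies, 322 windows, 334 names or 570 region features and a threshold of 0.05. CPM are counts scaled by that fit's TMM library size, so they differ slightly between fits, and shares use the raw totals. The filter needs a minimum count in enough libraries, so copies that passed are not all copies. Ratios between regions were tested by exact permutation over libraries (scipy 1.17.1). DESeq2 1.42.0 and limma 3.58.1 (voom) were alternatives, and the scripts were tested on simulated data. All 6 pairs of libraries differed beyond sampling noise in a chi-square check.

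Named copies were the 10 of highest mean CPM, any past the threshold, and per direction the 6 lowest p-values among copies averaging 10 CPM or more. Named windows were the 6 of highest mean CPM and the highest and lowest ratio among those averaging 100 CPM or more. Named repeat names were the 10 of highest mean CPM, any past the threshold, and 5 per direction of lowest p. Other items were chosen after their values were seen. The members and rules were chosen with earlier results of these data known. Genes come from the Ensembl BDGP6.54 annotation, whose coordinates match the table: of 118 annotated insertions in the region, 112 had a copy with a start or end within 10 bp. Sequences of the copies were not used here. Python steps used numpy 2.4.6, pandas 2.3.3 and matplotlib 3.10.9.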

Additional observations from a re-analysis of the deposited data

How the results depend on the processing

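Alternatives were DESeq2 size factors, the raw table total as the only scaling, no filter on low counts, DESeq2, limma-voom, each library left out in turn, a replicate block, other window sizes and edges, and the region without overlapping copies or without its copy of largest difference. The regions left out around 1 place (the gene-free interval, the mdg3 element) were chosen after seeing the data. The alternative restricted to copies with unique 24-base words was not run.

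MDG3_I-int within the region was past the threshold under each alternative run on names (edgeR, DESeq2 or limma adjusted p up to 0.04). The region total had a log2 ratio between 0.10 and 0.37 without each library in turn, 0.40 without the gene-free interval and -0.037 with no filter, and it passed the threshold under no alternative. Its ratio to 2L was -0.53 to -0.52 without each library in turn. For copies, 1 was called higher with no filter and with DESeq2, 0 to 1 without each library in turn, and 1 lower with DESeq2. The copy called higher is the second internal part of the mdg3 element, which was called without Ars2KD 1. For windows, 1 was called higher with the table total, with no filter, with limma-voom and with 50 kb windows, and 2 with DESeq2, while 1 was called lower with no filter and with DESeq2. The shares of all copies or windows called under these alternatives are not given here.

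The labels do not say what a replicate number marks, and 2 pairs of libraries are too few to settle from the data whether the numbers pair them. Deviations from the group means correlated by 0.594 over repeat names between same-numbered libraries. With the replicate block 9 copies of the region were called higher and 6 lower, 1 window higher, and 9 names higher and 1 lower (edgeR). The shares of all copies, windows and names called with the block are not given here, so these counts do not set the region apart. The names called with the block include R1-2_DM, G_DM, DMRT1C, Baggins1, MDG3_LTR and MDG3_I-int on the higher side and Gypsy12_I-int on the lower side. With the block the region total was 0.27 (edgeR adjusted p = 0.134).

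Among the named items, the window 3R:2000001-2100000 turned to -0.23 without the mdg3 element, and the others that changed sign had a log2 ratio smaller than its SE. With no filter DMRT1B gave -0.075, DMCR1A -0.11, DOC3_DM -0.053 and the DMRT1B copy at 3910083 -0.20. That copy gave -0.0030 with limma-voom. With the table total NINJA_I-int gave 0.015, BATUMI_I-int 0.028 and the window from 1200001 gave 0.040. Without each library in turn, names ranged from -0.20 to 0.39 (DMRT1B), -0.19 to 0.0091 (DMRT1A), -0.012 to 0.025 (DMCR1A), -0.095 to 0.032 (NINJA_I-int), -0.62 to 0.44 (BATUMI_I-int), -0.93 to 0.22 (OSVALDO_I-int) and -0.60 to 0.47 (DOC3_DM). Windows ranged from -0.54 to 0.38 (from 1200001) and -0.042 to 0.30 (from 3700001). Copies ranged from -0.52 to 0.031 (DMRT1A at 3900247), -0.086 to 0.79 (DMRT1B at 3766782), -1.36 to 0.87 (DMRT1B at 1287600), -0.32 to 0.25 (DMRT1B at 3910083), -0.68 to 0.25 (DMRT1B at 3908295), -0.46 to 1.32 (DMRT1B at 4016145) and -0.86 to 0.074 (BATUMI_I-int at 3890775). The cause of these changes was not tested, apart from the mdg3 element, whose counts were taken out of the window. With 46218 counts in the smallest library, 340 of 5423 copies could be tested, and copies of a few counts could not be told apart between groups at this depth.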
